A study of Mus musculus with 8 samples.

Results

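Transcripts of the Ifi200 family, the interferon-inducible PYHIN genes that lie together on mouse chromosome 1, were followed in injured mouse liver. The family was selected on the measured read counts of Ifi202b, which were high in only 1 control group, so that pattern is described below with no test. Members were the rows of the deposited count table whose symbol was Ifi202b, Ifi203, Ifi204, Ifi205, Mnda, Mndal, Aim2 or Pyhin1. Of these 8 symbols, 6 were in the table of 22155 genes. Mnda and Pyhin1 were not there under those symbols, and RefSeq gives them as synonyms of Ifi211 and Ifi209. These genes and Ifi206, Ifi207, Ifi208, Ifi213 and Ifi214 were in the table and are described as 7 other family genes.

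The study compared livers without Yap1, the coactivator at the end of the Hippo pathway, or without Ctgf, a secreted matrix-associated protein, with floxed controls. All mice were C57BL/6 by label and 8 to 10 weeks old, or 8 weeks by the design text. All received ethanol in the liquid diet of Lieber and DeCarli, at 1% for 2 days and 2% for 10 days, and carbon tetrachloride, a hepatotoxin, at 1 µl per g 2 days before the liver was taken. The Yap control group carried floxed Yap1 and received AAV8-GFP, and the Yap1 knockout group received AAV8-iCre, which removes Yap1 from hepatocytes and leaves other liver cells with the gene. The Ctgf control group carried floxed Ctgf, and the Ctgf knockout group was a conditional knockout, with the Cre driver not given in the sources used here. Each group had 2 libraries, and the labels do not say that these came from separate animals, so p-values measure the spread between libraries, which may be technical.

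Most family proteins carry a HIN domain, which binds double-stranded DNA, and most carry a pyrin domain, through which they join other signalling proteins. AIM2 recognises DNA in the cytosol and assembles an inflammasome with the adaptor ASC, encoded by Pycard, and with caspase-1. The Ifi202b product, p202, has HIN domains but no pyrin domain, binds DNA and AIM2 and is known to restrain AIM2. Its level is known to differ widely between inbred mouse strains. Macrophages, which are abundant in liver, are a well-known site of AIM2 inflammasome activity.

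The family genes occupied chr1:173350879-174031810 in GRCm38, a span of 680932 bp, with positions from GENCODE. Ifi202b lay on the minus strand at chr1:173962568-173982744, between Ifi203 and Ifi205, and its exons covered 1697 bp. Family genes are close copies, and reads from shared stretches may be split or dropped in counting. For Ifi202b, 0 of 1648 distinct 50-base words of its transcripts occurred in any other annotated gene. The share of such words also found in other genes was 0.742% for Aim2, 12.4% for Ifi203, 18.6% for Ifi205, 19.6% for Mndal and 20.02% for Ifi204. Ifi211 shared 72.8% of its words, mainly with Ifi205, so counts of Ifi211 and Ifi205 are uncertain. Mndal and Ifi203 also overlapped by 37 bp of exon.

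The start regions show which interferon element cores occur in the windows of the family genes. RefSeq start windows (GRCm38.p6), from 250 bases before the start to 50 after it, were given for 12 of the 13 family genes. They were searched on both strands for the core of the interferon-stimulated response element (ISRE), which is GAAA, any 2 bases and GAAA again. The core of the interferon-gamma activated site (GAS), TTCNNNGAA, which reads the same on both strands, was searched in the same way. The ISRE core occurred in the windows of 9 of the 12 genes, against 3.99% of 27025 genes with windows of this length. It was not found in the windows of Ifi202b, Aim2 and Ifi209. The GAS core occurred in 1 of the 12, Ifi202b, against 9.55% of all genes. That is near the share of all genes, so this match does not set Ifi202b apart. No ISRE match overlapped a GAS match in family windows. A match is a stretch of letters and no measured binding site.

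The 250 bases before the Ifi202b start, chr1:173982845-173983094 on the minus strand, are printed to show the GAS core, which is in capitals.
Ifi202b: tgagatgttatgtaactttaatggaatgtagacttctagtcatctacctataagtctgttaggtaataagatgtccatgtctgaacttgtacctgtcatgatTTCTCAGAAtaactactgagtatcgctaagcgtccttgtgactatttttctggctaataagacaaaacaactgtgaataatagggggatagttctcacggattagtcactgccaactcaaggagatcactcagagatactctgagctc

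The Ifi202b match began 148 bases before the start. The next 4 windows show what surrounds the ISRE core in other family genes, with the core in capitals. They are chr1:173942493-173942567, chr1:174031840-174031929, chr1:173741810-173741890 and chr1:173599296-173599385, on the minus strand.
Ifi203: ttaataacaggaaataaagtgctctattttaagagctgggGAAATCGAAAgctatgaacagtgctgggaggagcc
Ifi205: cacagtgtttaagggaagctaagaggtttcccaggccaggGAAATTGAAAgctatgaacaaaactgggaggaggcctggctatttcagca
Ifi207: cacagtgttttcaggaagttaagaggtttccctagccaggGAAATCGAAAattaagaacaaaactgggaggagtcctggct
Ifi213: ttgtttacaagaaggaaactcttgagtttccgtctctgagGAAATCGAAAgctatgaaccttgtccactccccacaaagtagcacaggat

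Laid over each other at the core, 9 such windows with the core on the gene's own strand gave 36 pairs, identical over 41.1% to 100% of at least 75 bases, with a median of 56.6%. The Ifi203 window matched that of Mndal at 75 of 75 bases, although these windows lie at different places on the chromosome. Ifi213 differed from Ifi208 at 1 of 90 bases, and Ifi206 differed from Ifi208 at 1 of 80. Ifi205 and Ifi207 were identical at 70 of 81 bases.

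**Figure D1:**
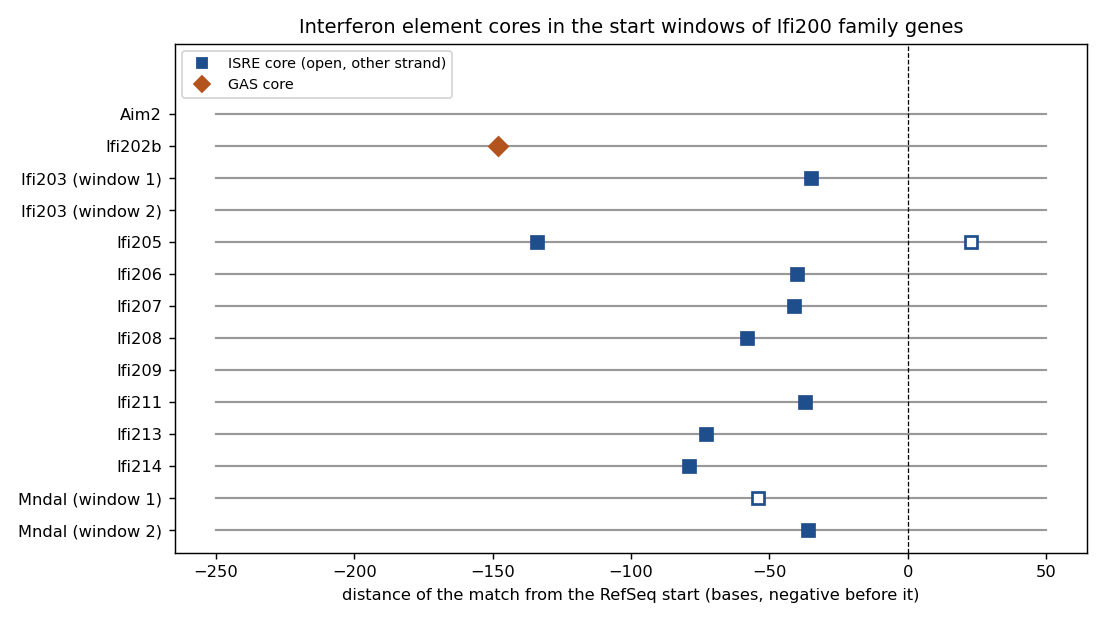
Each line is a RefSeq start window of a family gene, and the x axis gives the distance of a match from the start in bases, negative before it. Squares are ISRE cores (open on the opposite strand) and the diamond is the GAS core. Of the 12 genes, 9 hold an ISRE core. Ifi202b holds the GAS core 148 bases before its start, a core found in 9.55% of all genes.

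Total counts per library ran from 26904021 to 33488609, and a floor of 3 counts corresponded to 0.083 to 0.123 CPM, counts per 1000000 of the scaled library. Intervals and floors cover counting error only. Yap1 was at 107 and 76.1 CPM in the Yap controls and at 31.0 and 32.5 CPM in the Yap1 knockouts. Ctgf was at 28.8 and 32.1 CPM in the Ctgf controls, at 8.02 CPM in the library labelled Ctgf knockout replicate 1 and at 49.2 CPM in the library labelled Ctgf knockout replicate 2, which goes against its label. Hepatocyte markers summed to at least 46328 CPM in every library. Yap control replicate 2 also held exocrine pancreas transcripts, whose 10 markers summed to 12215 CPM there and to at most 7.51 CPM elsewhere.

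Ifi202b, the p202 gene, was read in the Ctgf controls and close to nowhere else. Its counts were 235 and 273 in Ctgf control replicates 1 and 2, or 7.49 and 7.76 CPM (7.63 ± 0.192 CPM, SD, n = 2). In the knockout-labelled Ctgf libraries its counts were 0 and 0, in the Yap controls 0 and 0, and in the Yap1 knockouts 0 and 1. The control libraries of the Ctgf line were thus high and close together, and the other 6 lay at or under the floor. This includes the library labelled Ctgf knockout replicate 2, which kept Ctgf reads and had 0 Ifi202b counts.

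Against a floor of 3 counts per library, Ifi202b was at least 71.7-fold higher in the Ctgf controls than in the knockout-labelled Ctgf libraries. By the same floor it was at least 61.8-fold higher than in the Yap controls and at least 73.5-fold higher than in the Yap1 knockouts. The floxed line, the virus and any other difference between the lines' controls cannot be told apart by these groups. With 2 libraries per group, genotype and anything else shared by both libraries of a group cannot be told apart either.

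Across the table, Ifi202b was the only gene with at least 50 counts in both libraries of 1 group and at most 1 count in each of the other 6. Lowered to 20 counts, the same pattern held for Ifi202b in the Ctgf controls and for Fezf1 in the Yap1 knockouts. At 10 counts, Epo and Gipr joined Fezf1 in the Yap1 knockouts, and Ifi202b was still alone in the Ctgf controls. The Yap controls and the knockout-labelled Ctgf libraries had 0 such genes at each of these counts. These thresholds were chosen with the Ifi202b counts known.

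Where it was read, Ifi202b was not a minor transcript of the family. It made up 9.89% and 8.97% of family counts in Ctgf control replicates 1 and 2. Per kilobase of exon, its level in the Ctgf controls was 4.49 ± 0.113 CPM (SD, n = 2). On that scale it lay below Ifi204 (6.67 ± 0.202 CPM per kb) and Ifi207 (6.02 ± 1.32 CPM per kb) and above Ifi203 (3.04 ± 0.277 CPM per kb). Mndal, at 4.63 ± 0.502 CPM per kb, differed from Ifi202b by less than its own SD.

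**Figure D2:**
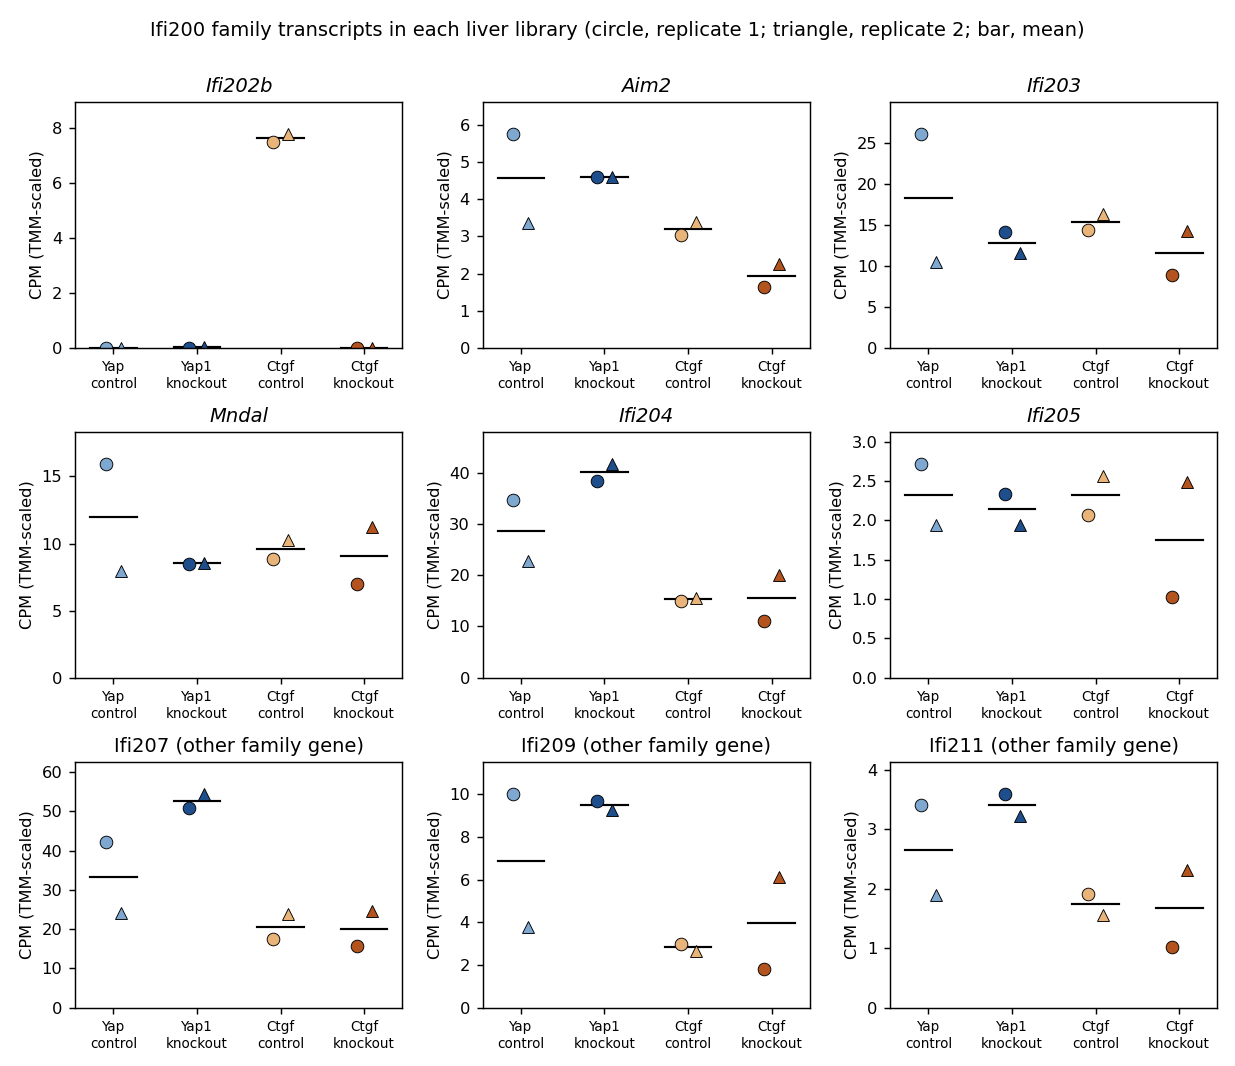
The y axes give CPM of the scaled library for the 6 members and 3 other family genes, with a circle for replicate 1, a triangle for replicate 2 and a bar for the mean of each labelled group. Ifi202b has 7.49 and 7.76 CPM in the Ctgf controls and lies at or near 0 in the other 6 libraries, while every other gene drawn has counts in all 8.

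Over all 8 libraries, the order of the family by level per kilobase began with Ifi204 (10.8 ± 5.10 CPM per kb, SD, n = 8) and Ifi207 (9.25 ± 4.45). These means lay apart by less than either SD, which spans all groups. Within libraries, Ifi204 lay above Ifi207 in all but Ctgf control replicate 2 (6.81 against 6.95 CPM per kb). Mndal (4.74 ± 1.36) and Ifi203 (2.88 ± 1.04) came next and lay apart by more than either SD. Ifi209, Ifi211, Ifi205 (1.32 ± 0.330) and Aim2 (1.26 ± 0.475) followed, each within an SD of its neighbour. Ifi202b averaged 1.13 ± 2.08 CPM per kb, an average made almost wholly by the Ctgf controls. Ifi206, Ifi208 and Ifi213 averaged at most 0.428 CPM per kb, and Ifi214 had at most 6 counts in a library. The library labelled Ctgf knockout replicate 1 was the lowest of the 8 for Aim2, Ifi203, Ifi204, Ifi205 and Mndal.

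Without Ifi202b, the summed family level was highest in 3 libraries of the Yap line. It was 148 and 78.5 CPM in the Yap controls and 136 and 140 CPM in the Yap1 knockouts. The Ctgf controls had 68.3 and 78.8 CPM, and the knockout-labelled Ctgf libraries 51.2 and 90.1 CPM. The Ctgf groups overlapped in this sum, in contrast to Ifi202b.

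Aim2, the inflammasome sensor, was at 3.03 and 3.38 CPM in the Ctgf controls. It was at 1.63 and 2.26 CPM in the knockout-labelled Ctgf libraries, both lower than either control. Its log2 fold change was -0.72 (SE 0.362, unadjusted p = 0.0828), and the Benjamini-Hochberg adjusted p of edgeR's quasi-likelihood test was 1, so Aim2 was not called. Of 13999 genes tested, 0% were called in this comparison at adjusted p under 0.05, and 16.8% had both knockout-labelled libraries below both controls. Another 15.5% had them above both controls. At unadjusted p under 0.05, 277 genes passed in either direction.

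Ifi203, an interferon-inducible HIN protein gene, was at 14.3 and 16.3 CPM in the Ctgf controls. In the knockout-labelled Ctgf libraries it was at 8.83 and 14.3 CPM, with the higher value just under the lower control. Its log2 fold change was -0.41 (SE 0.425, adjusted p = 1). Aim2 and Ifi203 were thus 2 of 5 tested members with groups that did not overlap, both lower.

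Ifi204, the mouse gene related to the DNA sensor IFI16, was at 14.98 and 15.6 CPM in the Ctgf controls. It was at 11.1 and 20.04 CPM in the knockout-labelled Ctgf libraries, which spanned the controls. Its log2 fold change was 0.02 (SE 0.318, adjusted p = 1). Mndal was at 8.83 and 10.3 CPM in the controls, against 6.95 and 11.3 CPM in the knockout-labelled Ctgf libraries. Ifi205, the p205 gene, was at 2.07 and 2.56 CPM in the controls, against 1.03 and 2.48 CPM in the knockout-labelled Ctgf libraries. Both genes overlapped between the groups, with log2 fold changes of -0.07 for Mndal and -0.40 for Ifi205.

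The 5 tested members had a median log2 fold change of -0.40 in the Ctgf comparison, against 0.01 over all genes tested. The 6 tested other family genes went the other way, with a median of 0.52 and 4 above 0. Kupffer cell markers (8 genes) summed to 577 to 911 CPM in the Ctgf controls and to 325 to 591 CPM in the knockout-labelled Ctgf libraries, with none at 0 and 0 of 8 above 0 on the log2 scale. Monocyte and macrophage markers (12 genes, none at 0) summed to 796 to 811 CPM and to 383 to 669 CPM in the same groups, and neutrophil markers (12 genes) to 192 to 224 CPM and to 78.6 to 153 CPM. Stfa2 alone among the neutrophil markers was at 0 in both libraries labelled Ctgf knockout. The part of these cells in the Aim2, Ifi203 and Ifi202b values was not tested. In whole liver, fewer cells of a type and less RNA per cell cannot be told apart.

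B cell markers (8 genes, none at 0) had higher sums in both Ctgf controls, 11.9 to 16.5 CPM, than in the other 6 libraries. They summed to 7.20 to 8.68 CPM in the knockout-labelled Ctgf libraries, 4.32 to 8.30 CPM in the Yap controls and 4.74 to 6.81 CPM in the Yap1 knockouts. Unlike Ifi202b, these markers were read in all 8 libraries, and their part in the Ifi202b level was not tested. Dendritic cell markers (8 genes) summed to 19.2 to 22.9 CPM in the Ctgf controls and to 15.8 to 34.9 CPM in the knockout-labelled Ctgf libraries. T and NK cell markers (12 genes) summed to 7.62 to 7.84 CPM and to 5.002 to 10.05 CPM in those groups.

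The Yap1 comparison asked what hepatocyte Yap1 contributes, and no member passed its test. Ifi204 was at 34.6 and 22.7 CPM in Yap control replicates 1 and 2 and at 38.4 and 41.6 CPM in the Yap1 knockouts, so the groups did not overlap. Its log2 fold change was 0.48 (SE 0.316, adjusted p = 0.496). Of all genes tested, 0.0286% were called in this comparison, 23.6% had both knockouts above both controls and 20.8% had both below. At unadjusted p under 0.05, 1928 genes passed, and 0 of the 5 members and 0 of 6 other family genes were among them.

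Ifi203 was at 26.1 and 10.5 CPM in the Yap controls and at 14.2 and 11.5 CPM in the Yap1 knockouts. Mndal was at 15.9 and 7.99 CPM in the Yap controls and at 8.46 and 8.58 CPM in the Yap1 knockouts. For both genes Yap control replicate 1 was the highest of the 8 libraries and replicate 2 was below both knockouts, so the groups overlapped. Their log2 fold changes were -0.51 (SE 0.424) and -0.49 (SE 0.372), with adjusted p = 0.577 and 0.548.

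These values rested on the Yap controls. Without Yap control replicate 1, Ifi203 was at 0.26 and Mndal at 0.07 on the log2 scale. Without the 2 libraries that stood apart above (Yap control replicate 2, and Ctgf knockout replicate 2 as labelled), Ifi203 fell by 1.02 (adjusted p = 0.0313) and Mndal fell by 0.90 (adjusted p = 0.0396). In that fit Yap control replicate 1 was the lone control, assumed to vary like the other groups, and 6.58% of genes were called.

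Aim2 was at 5.75 and 3.38 CPM in the Yap controls and at 4.608 and 4.603 CPM in the Yap1 knockouts, with a log2 fold change of 0.01 (SE 0.352). Ifi205 was at 2.71 and 1.93 CPM in the Yap controls and at 2.34 and 1.94 CPM in the Yap1 knockouts, with a log2 fold change of -0.12 (SE 0.468). In both genes the knockouts lay between the controls. The 5 members had a median of -0.12 in this comparison, against -0.00 over all genes tested. The 6 tested other family genes had a median of 0.36, with 5 above 0.

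Ifi207, a PYHIN gene next to Ifi204, was the other family gene whose groups did not overlap here. It was at 42.3 and 24.2 CPM in the Yap controls and at 50.9 and 54.3 CPM in the Yap1 knockouts (log2 fold change 0.66, SE 0.332, adjusted p = 0.411). Ifi209, the RefSeq gene for Pyhin1, was at 9.98 and 3.79 CPM in the Yap controls and at 9.68 and 9.27 CPM in the Yap1 knockouts. Ifi211, the RefSeq gene for Mnda, was at 3.40 and 1.89 CPM and at 3.59 and 3.22 CPM in the same groups. Yap control replicate 2 was the lower control for all 3. Neutrophil markers summed to 151 to 258 CPM in the Yap controls and to 505 to 1030 CPM in the Yap1 knockouts, and 11 of 12 were above 0 on the log2 scale, with 0 called. Retnlg, a neutrophil gene, had the smallest p of these (log2 fold change 2.90, adjusted p = 0.0910). Monocyte and macrophage markers summed to 1387 to 2759 CPM and to 1480 to 1811 CPM. The part of either in the Ifi204 and Ifi207 values was not tested.

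The balance between Ifi204 and Ifi203 is described with no test, since this pair was picked after its values were seen. This ratio of counts does not depend on library scaling. Ifi204 had 1.33 and 2.16 counts for each Ifi203 count in the Yap controls, and 2.71 and 3.61 in the Yap1 knockouts. It had 1.04 and 0.958 in the Ctgf controls, and 1.26 and 1.40 in the knockout-labelled Ctgf libraries. In each line the ratio was higher in both knockout-labelled libraries than in both controls. The share of all gene pairs whose groups do not overlap was not counted, so these ratios are no result about the family. Some other pairs also had groups that did not overlap. Ifi207 had 1.62 and 2.31 counts for each Ifi203 count in the Yap controls against 3.58 and 4.71 in the Yap1 knockouts. For the Ctgf line the same ratio was 1.21 and 1.46 in controls and 1.78 and 1.73 in the knockout-labelled libraries, so the groups overlapped in neither line. Mndal had 0.616 and 0.631 counts for each Ifi203 count in the Ctgf controls and 0.787 and 0.788 in the knockout-labelled Ctgf libraries, also without overlap, while in the Yap line the controls (0.610 and 0.761) and knockouts (0.596 and 0.745) overlapped. Ifi204 to Mndal did not overlap in the Yap line (2.18 and 2.84 against 4.54 and 4.85) and overlapped in the Ctgf line (1.70 and 1.52 against 1.60 and 1.78). The lack of overlap in the Ctgf line was thus not particular to Ifi204. Each of these pairs without overlap there was a ratio to Ifi203, which was itself lower in both knockout-labelled Ctgf libraries. Ifi204 and Mndal share words with Ifi211, so part of these counts may belong to it.

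**Figure D3:**
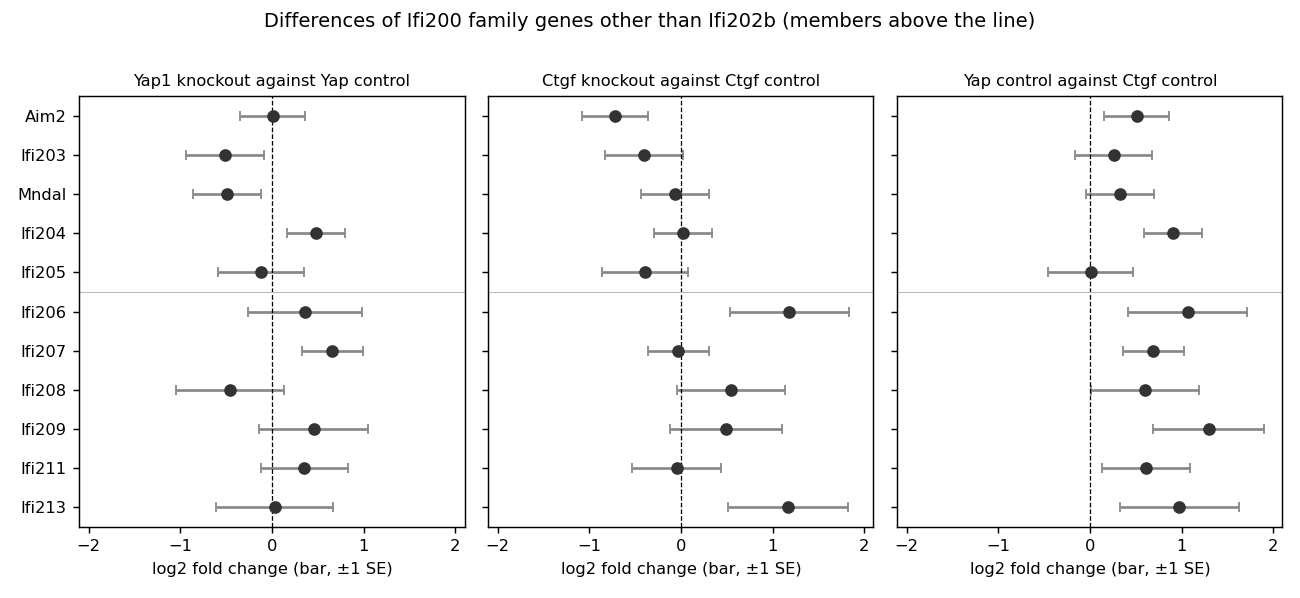
The x axes give the log2 fold change of each family gene other than Ifi202b with a bar of 1 SE on each side, for Yap1 knockout against Yap control, the knockout-labelled Ctgf libraries against Ctgf control, and Yap control against Ctgf control. In the last panel all 11 tested genes lie above 0, from 0.01 (Ifi205, -0.01 with no filter on low counts) to 1.29, while without Yap control replicate 1 only 2 of 5 members and 3 of 6 other family genes do; in the others they lie on both sides, and no gene drawn was called.

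The difference between the Yap1 and Ctgf effects was tested as an interaction in the same fit. It was 0.73 for Aim2 (SE 0.504), 0.46 for Ifi204, 0.27 for Ifi205, -0.10 for Ifi203 and -0.42 for Mndal on the log2 scale. Adjusted p ran from 0.653 to 0.956 over these 5, and 0% of all genes were called, with 1242 genes at unadjusted p under 0.05. A difference between these effects was thus not detectable for any member. The Ctgf effect here was that of the knockout-labelled libraries, whose mean Ctgf was 28.6 CPM, against 30.4 CPM in the Ctgf controls. The contrast therefore does not cleanly compare loss of Yap1 with loss of Ctgf.

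Yap controls and Ctgf controls differ in the floxed line and in the virus given, and these cannot be told apart. Ifi204 was higher in the Yap controls, at 34.6 and 22.7 CPM against 14.98 and 15.6 CPM, with no overlap (log2 fold change 0.90, SE 0.319, unadjusted p = 0.0224, adjusted p = 0.155). In this comparison 2.38% of genes were called, 26.1% had both Yap controls above both Ctgf controls, and 27.0% had both below. Ifi207 and Ifi209 also did not overlap, with log2 fold changes of 0.69 (SE 0.333) and 1.29 (SE 0.608). Aim2 (0.51, SE 0.354), Mndal (0.32), Ifi203 (0.26) and Ifi205 (0.01) overlapped between the groups.

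All 5 tested members and 6 of 6 tested other family genes were above 0, Ifi205 by an amount that turned to -0.01 with no filter on low counts, and 0 of the 11 were called. This direction rested on Yap control replicate 1: without it, 2 of the 5 members and 3 of the 6 other family genes were above 0, and Ifi203 was at -0.52, Mndal at -0.24 and Ifi205 at -0.24. Ifi202b went the opposite way, with 0 counts in both Yap controls. Without the same 2 libraries, 4 members and 5 other family genes were called higher in the lone Yap control, where 28.4% of all genes were called. Those members were Ifi204 (1.17), Aim2 (0.84), Ifi203 (0.76) and Mndal (0.73). Monocyte and macrophage markers were also mostly higher in the Yap controls: 11 of 12 were above 0, with a median of 1.37. Between the 2 Yap controls these markers went the other way from the family. They summed to 1387 CPM in replicate 1 and 2759 CPM in replicate 2, against 148 and 78.5 CPM for the family without Ifi202b. Gpnmb, a macrophage glycoprotein (2.9996, adjusted p = 0.0440), and the Fc receptor gene Fcgr1 (1.62, adjusted p = 0.04998) were called higher. Camp, the neutrophil gene for cathelicidin, was called in the other direction (adjusted p = 0.0332), with 1 and 1 counts in the Yap controls and 53 and 62 in the Ctgf controls. Its counts were 14 and 3 in the knockout-labelled Ctgf libraries, and both Yap1 knockouts had few, 8 and 9. Like Ifi202b, Camp was thus highest in both Ctgf controls, but it was read in all 8 libraries. The share of all genes highest in both Ctgf controls was not counted. Of 17 other settings, Camp passed the threshold in 12, Fcgr1 in 10 and Gpnmb in 9. All 3 calls were lost without either Ctgf control or either Yap1 knockout library, with adjusted p from 0.111 to 0.434. Those of Gpnmb and Fcgr1 were also lost without Yap control replicate 2 (0.0575 and 0.0596), and that of Gpnmb without either knockout-labelled Ctgf library (0.0521 and 0.0526). The part of macrophages or neutrophils in the family's levels was not tested.

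The remaining other family genes were low. Ifi206 was at 0.733 and 0.569 CPM in the Ctgf controls, against 0.887 and 2.07 CPM in the knockout-labelled Ctgf libraries, without overlap (log2 fold change 1.18, SE 0.651, adjusted p = 1). Ifi213 was at 0.956 and 0.967 CPM in the controls, against 1.42 and 2.89 CPM in those libraries (1.16, SE 0.653, adjusted p = 1). Neither was called. Ifi208 overlapped in every comparison. Ifi214 had 0 to 6 counts per library and did not pass the filter on low counts.

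Genes of the AIM2 inflammasome and of related inflammasomes, with their regulators and products, were counted from a list of 24 genes, all tested. In the Yap1 comparison 0 were called (median 0.15) and 0 had an unadjusted p under 0.05. The smallest p was that of Nek7, a kinase that binds NLRP3 (0.50, adjusted p = 0.375). In the Ctgf comparison 0 were called, and 4 were lower at unadjusted p under 0.05 (median -0.24). Over all 13999 genes tested, 185 were lower at that p. Nlrp3, a sensor of a related inflammasome, was at 11.3 and 13.4 CPM in the Ctgf controls, against 3.44 and 5.37 CPM in the knockout-labelled Ctgf libraries (log2 fold change -1.49, SE 0.542, adjusted p = 1). The pyrin gene Mefv (-1.002) and the cytokine gene Il1a (-1.01) had the same sign, also with adjusted p = 1. Pycard, the ASC gene, was at 2.61 and 2.59 CPM in the Ctgf controls, against 1.24 and 3.66 CPM in the knockout-labelled Ctgf libraries, on both sides of the controls.

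Between the controls Pycard was at 7.77 and 15.6 CPM in the Yap line, above both Ctgf controls by 2.17 on the log2 scale (SE 0.528, adjusted p = 0.0752). The receptors Naip2 (1.48, adjusted p = 0.0776) and Naip5 (1.22, adjusted p = 0.0889) were also not called. DESeq2 called 3 genes of this list between the controls, where it called 10.9% of all genes, and edgeR and limma-voom called 0 of the list.

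Cytosolic DNA sensing through cGAS and STING was covered by 16 tested genes, of which 0 were called in either knockout comparison. Ikbke, a kinase of that branch, was at 32.0 and 29.1 CPM in the Yap controls and at 71.0 and 60.0 CPM in the Ctgf controls. It was called lower in the former (log2 fold change -1.10, SE 0.222, adjusted p = 0.0494). This call lay at the threshold and passed it in 5 of 17 other settings. It was lost with RLE and upper-quartile scaling, limma-voom, the replicate block and only the libraries compared, and on leaving out any 1 library other than Yap control replicate 1, with adjusted p up to 0.443. DESeq2 called 2 of the 16 genes between the controls, where it called 10.9% of all genes, and limma-voom called 0 of the 16. Dhx9, a helicase gene, had the smallest p of the list in the Ctgf comparison (-0.25, adjusted p = 1). Tbk1, the related kinase, had a log2 fold change of 0.56 in the Yap1 comparison (adjusted p = 0.283), and Rnaseh2c, a subunit of RNase H2, had -1.08 (adjusted p = 0.249). The list medians were -0.07 in the Yap1 and -0.04 in the Ctgf comparison.

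Interferon receptors and their signalling genes (15 tested) also had 0 calls in all comparisons. Socs3, a feedback inhibitor of cytokine signalling, had a log2 fold change of 0.84 (adjusted p = 0.302) and Socs1 of 1.32 (adjusted p = 0.361) in the Yap1 comparison. In the Ctgf comparison 0 of the 15 had an unadjusted p under 0.05.

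Of 40 interferon-stimulated genes outside the family, 40 were tested and 0 were called in the knockout comparisons or between the controls. In the Yap1 comparison their median was -0.37, with 5 lower and 1 higher at unadjusted p under 0.05. Igtp, an interferon-inducible GTPase, was at 36.3 and 43.8 CPM in the Yap controls and at 17.0 and 12.6 CPM in the Yap1 knockouts (log2 fold change -1.43, SE 0.359, adjusted p = 0.189). Bst2, a restriction factor (-1.05, adjusted p = 0.236), and Psmb8, an immunoproteasome subunit (-0.89, adjusted p = 0.280), also had values below 0. Ifi204 and Ifi207 had values above 0 in the same comparison. DESeq2 called 1 of the 40 there and 2 between the controls, and limma-voom 0. Of all genes, DESeq2 called 3.64% in the Yap1 comparison and 10.9% between the controls.

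In the Ctgf comparison the median of the 40 was 0.14, and 0 had an unadjusted p under 0.05. Of the 5 tested members, 4 lay below 0, while 4 of the 6 tested other family genes lay above 0. The chemokine gene Cxcl9 had the smallest p of the 40 (1.38, adjusted p = 1). Rsad2, the viperin gene, was at 156 and 2223 CPM in the Yap controls, 676 and 2555 CPM in the Yap1 knockouts, and only 46.7 and 60.0 CPM in the Ctgf controls, against 49.5 and 47.5 CPM in the knockout-labelled Ctgf libraries. It was high in the Yap line and differed widely between the Yap controls, while Ifi202b was at 0 in both.

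Genes beside the family gave a view of the surrounding chromosome. Within 1000000 bp of the family, 38 other genes of the table were examined, of which 20, mostly olfactory receptor genes, had no count and 16 were tested. Of these, 0 were called in any comparison. In the Ctgf comparison 1 of these had an unadjusted p under 0.05. Kcnj10, a potassium channel gene, was at 3.83 and 4.63 CPM in the Ctgf controls, against 2.48 and 0.795 CPM in the knockout-labelled Ctgf libraries (log2 fold change -1.37, adjusted p = 1). The largest difference by size, that of Vsig8 (2.33), came from at most 0.477 CPM in these 4 libraries.

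In the Yap1 comparison the chemokine receptor gene Ackr1 (-2.16, adjusted p = 0.220) and the olfactory receptor gene Olfr16 (1.96, adjusted p = 0.215) had the smallest p of the neighbours. Slamf8 followed in size (-1.45). Between the controls 7 of the 16 had an unadjusted p under 0.05, 5 higher and 2 lower in the Yap controls. Over all 13999 genes tested, 3156 passed at that p in this comparison, 1705 higher and 1451 lower. The lower neighbours were Kcnj10 (-1.75, adjusted p = 0.124) and Ackr1 (-1.54, adjusted p = 0.152), which were not called. Like Ifi202b, both were highest in the Ctgf controls. Kcnj10 was at the levels above, against at most 2.48 CPM in the other 6 libraries. Ackr1 was at 4.34 and 4.44 CPM, against at most 3.30 CPM. The share of all genes highest in both Ctgf controls was not counted. Of all genes tested, 27.0% had both Ctgf controls above both Yap controls. In the Ctgf line, 16.8% had both controls above both knockout-labelled libraries. Tagln2, an actin-binding protein gene, was among the higher neighbours (1.64, adjusted p = 0.0613). It was at 198 and 153 CPM in the Yap controls and at 58.1 and 54.9 CPM in the Ctgf controls. None of the 16 was read in both Ctgf controls and at 0 in the other 6 libraries.

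**Figure D4:**
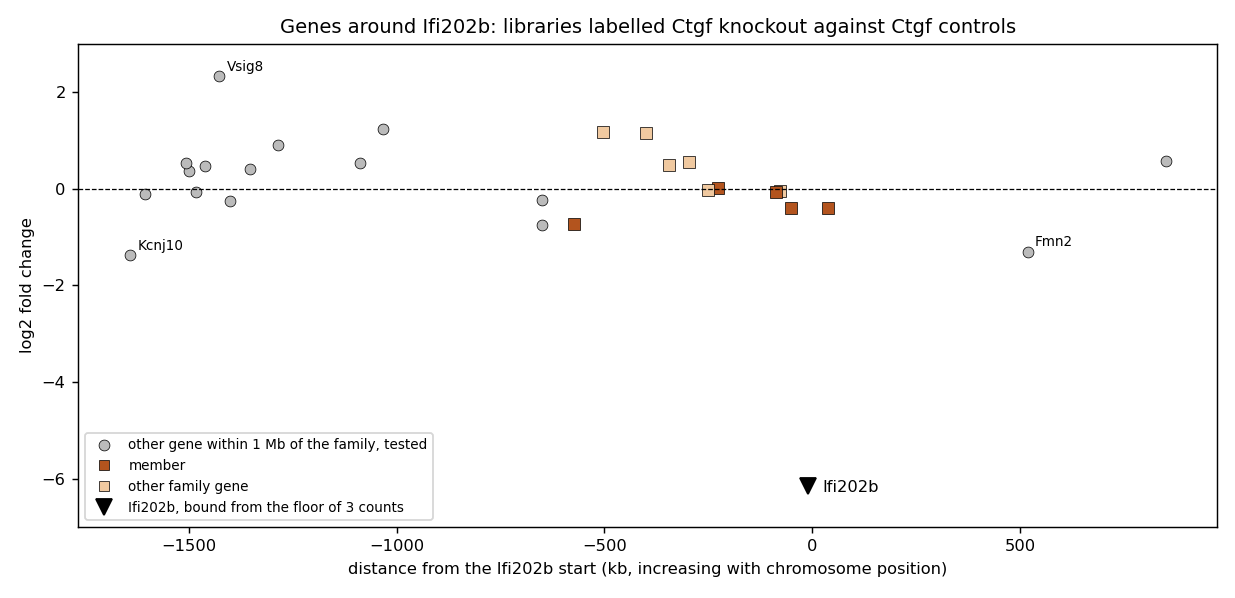
The x axis gives the distance in kb from the Ifi202b start and the y axis the log2 fold change of the knockout-labelled Ctgf libraries against the Ctgf controls, for the tested genes examined in the region. The triangle marks the Ifi202b bound from the floor of 3 counts, a fold of at least 71.7; the other family genes and the neighbours lie between -1.37 and 2.33, and none was called.

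The genes whose log2 CPM followed Ifi202b most closely over the 8 libraries were Ptprk (Pearson r = 0.92), Rtn4 (0.92), Zfp703 (0.92), Rgs9 (0.91), Slco1a5 (0.91), Katnbl1 (0.91), Ctsg (0.91) and Chmp4c (0.91). These r values describe 8 libraries, and the points share their library. The 8 genes were chosen out of the 13999 genes tested because their r was highest. Their high r and their higher levels in the Ctgf controls follow from that choice and are no support for a link. None of the 8 genes lies on chromosome 1. Ptprk, a receptor tyrosine phosphatase gene, was at 224 to 255 CPM in the Ctgf controls, against 122 to 161 CPM in the other 6 libraries. Chmp4c, an ESCRT subunit gene, was at 22.4 to 23.5 CPM and at 9.81 to 14.8 CPM. Ctsg, the neutrophil protease gene, reached only 0.512 CPM. In contrast to Ifi202b, 7 of the 8 had counts in every library, and Ctsg was at 0 in some. Family genes had r from -0.62 (Ifi206) to 0.22 (Ifi205) with Ifi202b.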

How the data were processed

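Liver RNA-seq of 8 mouse libraries in 4 labelled groups of 2 was used. The authors deposited whole-number read counts per gene symbol, not normalized. The tools named in the submitters' processing notes are STAR 2.6.0a, HTSeq 0.6.1 and bcl2fastq 2.20.0.422, with builds mm10 and GRCm38. With the annotation, the strand setting and any filter of the counting not given in the sources used here, reads of overlapping or antisense genes may not have been told apart.

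Counts were scaled by TMM and tested with edgeR 4.0.16 (R 4.3.3), quasi-likelihood F test, 1 fit of 4 groups, 13999 genes after edgeR's low-count filter, 4 residual degrees of freedom, a biological coefficient of variation of 27.2%, and Benjamini-Hochberg adjustment over all genes with a threshold of 0.05 for a call. SE was the size of the log2 fold change divided by the root of F. The log2 CPM behind the likeness to Ifi202b had a prior count of 2. The code was checked on data simulated from the fit's own means and dispersions, with large fold changes put in. That check says nothing of power for smaller changes. Alternatives were RLE and upper-quartile scaling, DESeq2 1.42.0, limma-voom 3.58.1, no filter, 1 CPM in 2 libraries, the replicate number as a block, only the libraries of a comparison, each library left out, and 2 libraries left out together (Yap control replicate 2, and Ctgf knockout replicate 2 as labelled). Positions and exon lengths came from GENCODE vM21 by symbol (21682 matched).

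The members and the gene lists were chosen with earlier results of these data known. The rule for named genes admitted the family genes, the 8 genes most like Ifi202b, list genes of smallest p in each knockout comparison or past the threshold, and neighbours with the largest differences. All list genes past the threshold are named; of the others it admitted, only examples. Genes outside it (Epo, Fezf1, Gipr, Rsad2, Pycard, Naip2, Naip5, Tagln2, Stfa2) were chosen after their values were seen. Each Yap control's title refers to a numbered knockout; the number is in the library name of Yap1 knockout replicate 2 for replicate 2, but in the control's own library name for replicate 1. The labels state no shared animal, litter or day, and the Ctgf libraries share only a replicate number. Of the neighbours, 1 gene is not reported here.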

Additional observations from a re-analysis of the deposited data

How the results depend on the processing

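Among the settings tried, the least fold of Ifi202b between the Ctgf controls and the knockout-labelled Ctgf libraries ran from 70.3 to 79.1 with a library left out, and it was 71.8 with RLE and 71.9 with upper-quartile scaling. The number of genes called at adjusted p under 0.05 varied with the tool and the libraries, and the cause was not tested. In the Yap1 comparison it was 509 with DESeq2, 37 with no low-count filter, 0 with only the libraries of the comparison, and 0 to 3728 with libraries left out (3728 without Yap control replicate 1, 938 without Yap control replicate 2 together with Ctgf knockout replicate 2 as labelled). In the Ctgf comparison it was 4 with DESeq2 and 1 with limma-voom. For the difference of the effects it was 142 with DESeq2, 2 with no filter and 0 to 2092 with libraries left out, and it could not be fitted on the libraries of 1 comparison. Between the controls it was 1527 with DESeq2, 0 with only their libraries and 0 to 4056 with libraries left out. Upper-quartile scaling moved the median of all genes between the controls from 0.04 to 0.18 and the split of calls from 178 higher and 155 lower to 244 and 114. No member was called in any of these settings other than the 1 that left out both libraries.

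With the replicate number as a block, 19 genes were called in the Yap1 comparison and 449 between the controls. Same-numbered libraries deviated together with r = 0.0716 in the Yap line and 0.0678 in the Ctgf line over 13999 genes. In that block Ifi204 was at -0.0334 in the Ctgf comparison, Ifi203 at 0.0635 in the difference of the effects and Ifi205 at -0.0169 between the controls.

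The sign of 4 small member values also changed. Aim2 in the Yap1 comparison was at -0.0404 with upper-quartile scaling, -0.00192 with DESeq2 and -0.0177 with only the libraries compared. Ifi204 in the Ctgf comparison was at -0.0295 with limma-voom, Ifi203 at 0.0256 in the difference of the effects with limma-voom, and Ifi205 at -0.00805 between the controls with no filter. Over left-out libraries, the Yap1 comparison gave -1.02 to 0.26 for Ifi203, -0.34 to 0.12 for Ifi205, -0.90 to 0.0653 for Mndal and -0.32 to 0.42 for Aim2. The Ctgf comparison gave -0.46 to 0.40 for Ifi204, -1.17 to 0.11 for Ifi205 and -0.46 to 0.25 for Mndal. The difference of the effects gave -0.61 to 0.66 for Ifi203, -0.26 to 1.05 for Ifi205 and -0.83 to 0.13 for Mndal. Between the controls the ranges were -0.52 to 0.76 for Ifi203, -0.24 to 0.22 for Ifi205 and -0.24 to 0.73 for Mndal. Of the 8 genes most like Ifi202b, 6 were shared with a prior count of 0.5 and 6 with 5. Where a group was left with 1 library, it was assumed to vary like the others.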

Other observations

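Of 3 genes listed as known to differ between C57BL/6 substrains, 2 had counts in every library. Nnt, a mitochondrial transhydrogenase gene, was at 45.2 to 100.4 CPM and Wdfy1, an endosomal adaptor gene, at 24.2 to 73.2 CPM over the 8 libraries, and neither was called in any comparison. Entpd4 was listed at 0 in all 8.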
